A study of Danio rerio with 24 samples.

Results

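Whole zebrafish (Danio rerio) embryos of a line labelled knockout (KO) were compared with wild-type (WT) embryos, both kept in DMSO, the solvent that served as the vehicle control of a drug experiment. The comparison rests on 8 of the 24 poly(A) RNA-seq libraries of the series, 4 from KO and 4 from WT embryos, chosen by their labels alone. Each library came from a pool of about 50 embryos labelled 3 days post fertilisation and a time of 0 h, and the labels describe the 4 libraries of a group as biological replicates. The KO libraries are titled as apelin receptor knockouts, the growth protocol speaks of aplnr(a/b) mutants of the AB strain, and the design text of the series speaks of apelin mutants, so the mutated gene is called here only as labelled. WT embryos descended from the grandparents of the mutants. How many founders or clutches each pool drew on was not given in the sources used here. The other 16 libraries are KO and WT embryos given the drug ML233 at 0.5 µM for 3 h or 24 h, and they enter the model fit and a later comparison.

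Apelin is a secreted peptide that, with the related peptide Apela (also called Elabela or Toddler), acts on G protein-coupled apelin receptors. In zebrafish the receptors are encoded by the paralogs aplnra and aplnrb, and the pathway is known for guiding mesendodermal and heart precursor cells during gastrulation and for the growth of blood vessels. In adult vertebrates it is also known for effects on heart contraction, fluid balance and glucose use. Zebrafish embryos at this age have a beating heart, a functioning retina, macrophages and neutrophils, a young liver, and a gut that is about to start feeding, so a whole-embryo library mixes the RNA of all of these.

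The growth protocol gives the CRISPR guide sequences with which mutants of this pathway were made, and they are shown because they define which genes the KO label can refer to. They are written from 5′ to 3′ with the 12 bases at the 3′ end, next to which Cas9 reads its PAM, in capitals, and the guides were not located in the genome here.
aplnra: tgggtgtgACTACTCGGAGT
aplnrb: cttgcagaGTGCCACGCCAA
apln: gaatgtgaAGATCTTGACGC
The receptor genes lie on chromosomes 8 and 10 and the ligand gene on chromosome 14 of the deposited table.

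The 8 libraries held 29.0 M to 37.7 M counts (1 M being 1e+06), and 27010 of 37660 listed genes had enough counts across the series to be tested. Lens, rod and muscle genes such as crybb1, rho and pygma had more than 100 CPM (counts scaled to library size) in all 8 libraries. Libraries of 1 group were not alike. On the first principal component of log2 CPM, which held 42.2% of the variance, KO libraries 2 and 4 lay at 72.6 and 74.9, KO libraries 1 and 3 at -33.7 and -18.2, and the WT libraries between -44.6 and -0.072. On the second (22.1%), WT libraries 3 and 4 lay at -58.6 and -52.0, and the other 6 between 9.08 and 32.9. Deviations from the group mean correlated across genes at 0.37 within KO 1 and 3, 0.33 within KO 2 and 4, 0.25 within WT 1 and 2 and 0.15 within WT 3 and 4, and at -0.58 or lower in every other pair of a group. Deviations from a group mean sum to 0 over its 4 libraries, so the negative values arise in part by construction. No label names what the libraries of a positively correlated pair share. The results below are therefore given for each library, and those that rest on KO libraries 2 and 4 are named as such. The tests took the 4 libraries of a group as independent, with no term for such pairs.

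Across all genes, edgeR's quasi-likelihood test called 40 of 27010 genes (0.148%) at a Benjamini-Hochberg adjusted p under 0.05, of which 28 rose (0.104%) and 12 fell (0.0444%) in KO embryos. Each of these calls used the spread estimated over all 24 libraries: the 8 DMSO libraries alone gave 0 calls (3148 genes at an unadjusted edgeR p under 0.05). The calls also depended on every library but KO 1 and 3: with KO library 2 left out 2 genes were called, with KO library 4 or any 1 WT library left out none was (1701 to 2646 genes at an unadjusted edgeR p under 0.05), and without KO library 1 or 3 there were 82 or 80. Gene groups are therefore also described by their members at an unadjusted p under 0.05, a looser mark that 1854 of all tested genes (6.86%) passed as higher and 1041 (3.85%) as lower in KO embryos. Both shares were smaller with KO libraries 2 and 4 left out, where 511 of 27506 tested genes (1.86%) were higher and 537 (1.95%) lower. Counts given below without these 2 libraries are to be read beside those smaller shares. Another description is whether all 4 KO libraries lay above or below all 4 WT libraries, which held for 991 genes (3.67%) above and 922 (3.41%) below. The median log2 fold change over all tested genes was -0.003. A list that exceeds the shares of all genes is described as such, without a test. The lists and their members were chosen with earlier results of these data known, so such an excess is not independent support. Because a library is a whole embryo pool, more cells of a type and more RNA per cell of that type cannot be told apart.

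**Figure D1:**
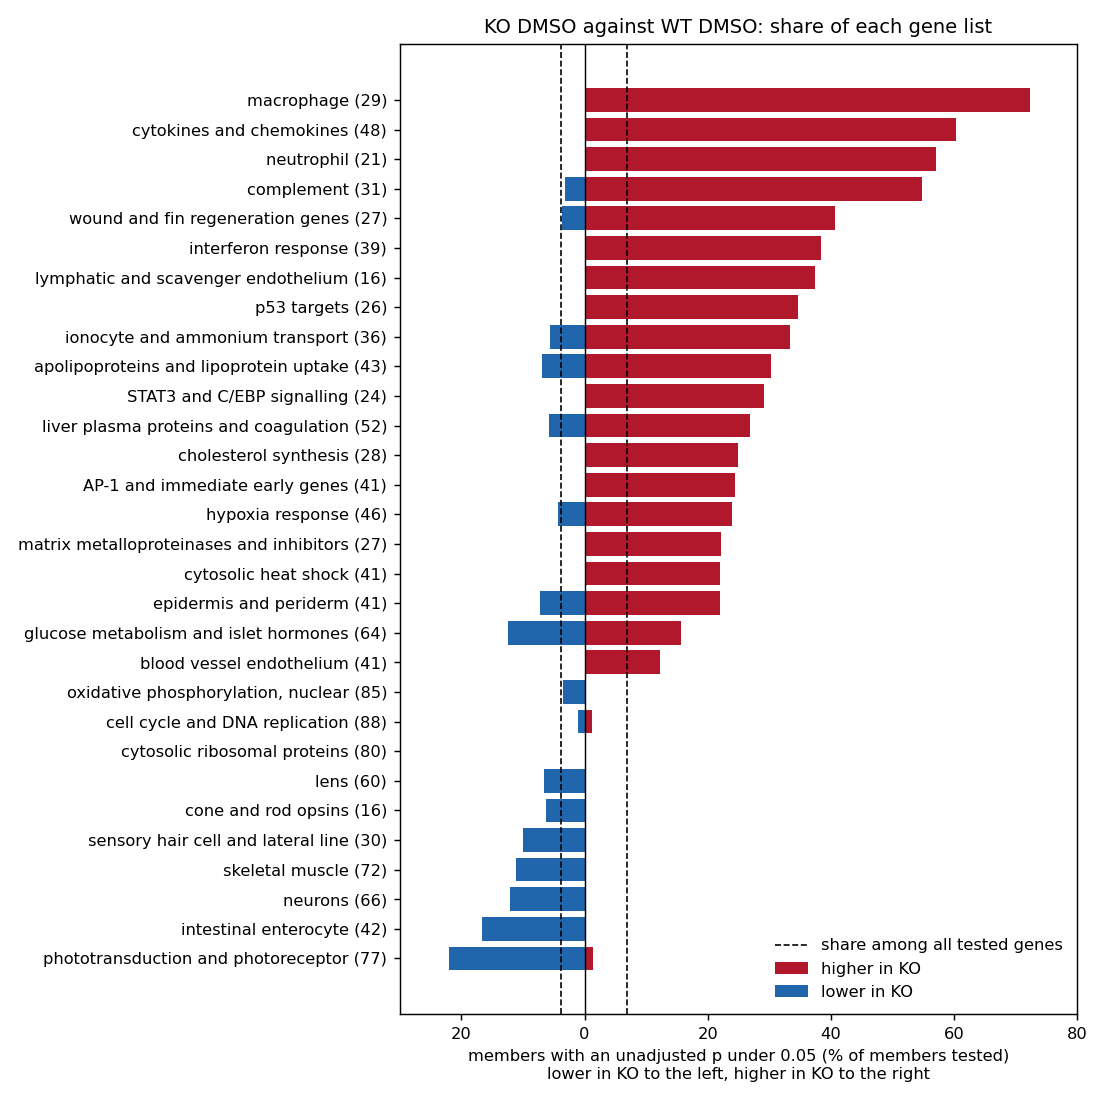
Share of tested members with an unadjusted edgeR p under 0.05 for 30 gene lists (number tested in parentheses), with members higher in KO DMSO embryos as red bars to the right and members lower as blue bars to the left. Dashed lines mark the same shares among all 27010 tested genes (6.86% higher, 3.85% lower). The macrophage list (72.4%) and the cytokine list (60.4%) extend farthest to the right, and the phototransduction list (22.1%) farthest to the left. Among the members counted as higher, 9 cytokine genes and 1 macrophage gene had a WT mean under 0.345 CPM.

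The 3 apelin genes with enough counts to be tested were lower in KO embryos, and none of the 3 was at 0; the fourth, apela, had no counts. The receptor gene aplnra (ENSDARG00000002172, chromosome 8, 40325690 to 40327397) had 19.2, 15.3, 19.3 and 13.3 CPM in KO libraries 1 to 4, against 24.6, 23.4, 25.2 and 24.99 CPM in WT libraries 1 to 4. Its paralog aplnrb (ENSDARG00000036670, chromosome 10, 8629275 to 8631361) had 16.3, 10.002, 16.1 and 9.71 CPM in KO and 24.8, 21.998, 23.8 and 23.4 CPM in WT libraries. KO libraries 2 and 4 were the lowest for both receptors, but every KO library lay below every WT library. The log2 fold changes of -0.55 and -0.85 did not pass the adjusted threshold (edgeR adjusted p 0.0747 and 0.0789). The ligand gene apln had 95.2, 88.4, 92.3 and 86.6 CPM in KO and 104, 112, 103 and 98.8 CPM in WT libraries, a smaller difference that also separated the groups (log2 fold change -0.21, edgeR adjusted p 0.215). For apela there was no count in any of the 24 libraries, where 3 counts of the smallest library would be 0.104 CPM. Guide-induced insertions or deletions need not lower a transcript, so these levels do not show which gene carries a mutation.

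The called protein-coding gene with the largest fold change was among the enzymes that cut extracellular matrix. Of 27 tested matrix metalloproteinase and inhibitor genes, 4 rose past the adjusted threshold, 6 were higher at an unadjusted p under 0.05 (22.2%), none was lower, and the median log2 fold change was 0.10. A few members were thus far from WT while the list's median stayed near 0. When KO libraries 2 and 4 were left out, 4 of 27 were higher and 1 was lower. The gelatinase gene mmp9 (ENSDARG00000042816, chromosome 8, 24281512 to 24295947), which vertebrate tissues switch on around wounds and inflammation, had 162, 148, 72.7 and 418 CPM in KO libraries 1 to 4, against 7.97, 8.90, 11.6 and 12.4 CPM in WT libraries 1 to 4 (log2 fold change 4.29, SE 0.63, edgeR adjusted p 0.023). The collagenase gene mmp13a (ENSDARG00000114451, chromosome 10, 38610741 to 38620514) had 106, 32.1, 16.4 and 254 CPM in KO and 2.12, 1.46, 1.63 and 1.698 CPM in WT libraries (log2 fold change 5.88, SE 0.92, edgeR adjusted p 0.0266). In both genes KO library 4 was the highest and KO library 3 the lowest, and that lowest KO value still exceeded the highest WT value. A neighbouring gene of the same name (ENSDARG00000012395, chromosome 10, 38593645 to 38602561) had 18.4, 20.7, 5.87 and 65.5 CPM in KO and 2.69, 2.41, 2.97 and 2.27 CPM in WT libraries (log2 fold change 3.41, SE 0.70, edgeR adjusted p 0.0498); reads of 2 near-identical copies may be split between them. The inhibitor gene timp2b (ENSDARG00000075261, chromosome 3, 57632965 to 57666996) rose as well, with 85.7, 270.5, 112 and 438 CPM in KO and 12.6, 11.3, 28.8 and 14.3 CPM in WT libraries (log2 fold change 3.76, SE 0.65, edgeR adjusted p 0.0301). The family member with the highest mean CPM, the gelatinase gene mmp2, had 189.7, 323, 235 and 319.6 CPM in KO and 190.0, 195, 222 and 215 CPM in WT libraries, which overlapped (log2 fold change 0.38, edgeR adjusted p 0.505).

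Genes that zebrafish wounds and regenerating fins are known to induce formed an overlapping list. In it, 6 of 27 tested genes rose past the adjusted threshold, 11 were higher (40.7%) and 1 lower (3.7%) at an unadjusted p under 0.05, and the median log2 fold change was 0.18. The 6 were mmp9, both mmp13a genes, il11a, il11b and lepb, all of them also in the protease or cytokine list. The WT means of il11b and lepb were under 0.345 CPM, about the level the low-count filter asks for, so nothing is read from their calls. After the removal of KO libraries 2 and 4, 7 of 27 were higher. The 1 lower member was and3, which encodes an actinodin of the fin fold (94.4, 99.5, 98.2 and 88.1 CPM in KO and 119, 117, 156 and 142 CPM in WT libraries, log2 fold change -0.49, edgeR adjusted p 0.282). All 4 KO libraries lay below all WT libraries for and3. The fibronectin gene fn1b, whose product lines healing wounds, had 549, 1154, 669 and 1266 CPM in KO and 418, 423, 421 and 435 CPM in WT libraries (log2 fold change 1.099, edgeR adjusted p 0.118), and KO libraries 2 and 4 were the highest of the 4 KO libraries, all of which exceeded WT.

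Secreted signals of inflammation held many higher members, though the macrophage list had the larger share. Of 48 tested cytokine, chemokine and effector genes, 29 were higher at an unadjusted p under 0.05 (60.4%), none was lower, 21 separated all KO from all WT libraries (43.8%), and the median log2 fold change was 0.96. The 60.4% and the role counts include 9 genes with a WT mean under 0.345 CPM, about the level the low-count filter asks for. These 9 entered the test through other libraries than the WT DMSO ones, and nothing is read from the count for them. The same held for 2 of the higher members in each of the wound, AP-1 and interferon lists. It also held for 1 each in the macrophage, neutrophil, complement, and STAT3 and C/EBP lists. In the plasma protein, ribosome biogenesis, ionocyte and circadian clock lists it held for 1 each too. By role the 29 higher genes were 12 of 20 cytokines, 12 of 18 chemokines and 5 of 10 enzymes and effectors, and 5 genes rose past the adjusted threshold. Without KO libraries 2 and 4, 11 of 48 were higher, with a median of 0.57. Macrophage and neutrophil markers were also higher in KO embryos, as described further on, and their part in these values was not tested. The neutrophil-attracting chemokine gene cxcl18b had 15.8, 17.9, 11.12 and 30.1 CPM in KO libraries 1 to 4, against 1.47, 0.922, 2.13 and 2.31 CPM in WT libraries 1 to 4 (log2 fold change 3.46, SE 0.57, edgeR adjusted p 0.0266). The gene il1b, for the fever and wound cytokine interleukin-1β, had 20.2, 9.45, 3.17 and 69.0 CPM in KO and 0.626, 1.08, 0.657 and 0.679 CPM in WT libraries (log2 fold change 5.05, SE 0.97, edgeR adjusted p 0.0362). No KO library overlapped with WT in either gene, and il1b varied 20-fold or more among KO libraries. The interleukin-11 genes signal through gp130 and STAT3, and il11a had 7.08, 4.62, 5.31 and 13.1 CPM in KO and 0.0544, 0.298, 1.096 and 0.170 CPM in WT libraries (log2 fold change 4.22, SE 0.82, edgeR adjusted p 0.0407). For il11b the raw counts were 67, 28, 39 and 112 in KO and 0, 0, 2 and 3 in WT libraries, so its fitted log2 fold change of 5.47 (SE 0.98, edgeR adjusted p 0.0335) depends on how near-zero counts are handled. The leptin gene lepb, which regenerating zebrafish tissues are known to induce, had 296, 284, 140 and 782 counts in KO and 1, 8, 33 and 2 counts in WT libraries, with 1 WT library well above the other WT libraries (log2 fold change 5.08, SE 1.01, edgeR adjusted p 0.0458). For all 5 genes KO library 4 was the highest, and every KO library exceeded every WT library. KO library 1, which lay near WT in the lists of liver, eye and lens genes described further on, exceeded the highest WT library by more than 6-fold in each of the 5. The WT mean of il11b was 0.041 CPM, under the level of the low-count filter, and that of lepb was also under it. Nothing is read from the call of either gene, from its separation or from how far it exceeded WT.

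Genes of the pathway on which interleukin-11 and leptin act were higher too, though none passed the adjusted threshold. Of 24 tested STAT3 and C/EBP signalling genes, 7 were higher at an unadjusted p under 0.05 (29.2%) and none lower, with a median log2 fold change of 0.34 and all 24 fold changes above 0. The shared receptor subunit gene il6st, which encodes gp130, had 61.4, 119, 67.7 and 124 CPM in KO and 47.0, 50.1, 45.1 and 49.1 CPM in WT libraries (log2 fold change 0.96, edgeR adjusted p 0.129). The transcription factor gene stat3 had 35.06, 55.2, 36.1 and 61.9 CPM in KO and 28.1, 29.2, 26.3 and 27.0 CPM in WT libraries (log2 fold change 0.77, edgeR adjusted p 0.148). Both separated the groups, while the feedback inhibitor gene socs3b, with 29.3, 147, 55.6 and 164 CPM in KO and 22.9, 21.3, 37.6 and 30.3 CPM in WT libraries, did not (log2 fold change 1.82, edgeR adjusted p 0.205). In all 3 genes KO libraries 2 and 4 were well above KO libraries 1 and 3, and without them 0 of 25 listed genes reached an unadjusted edgeR p under 0.05.

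**Figure D2:**
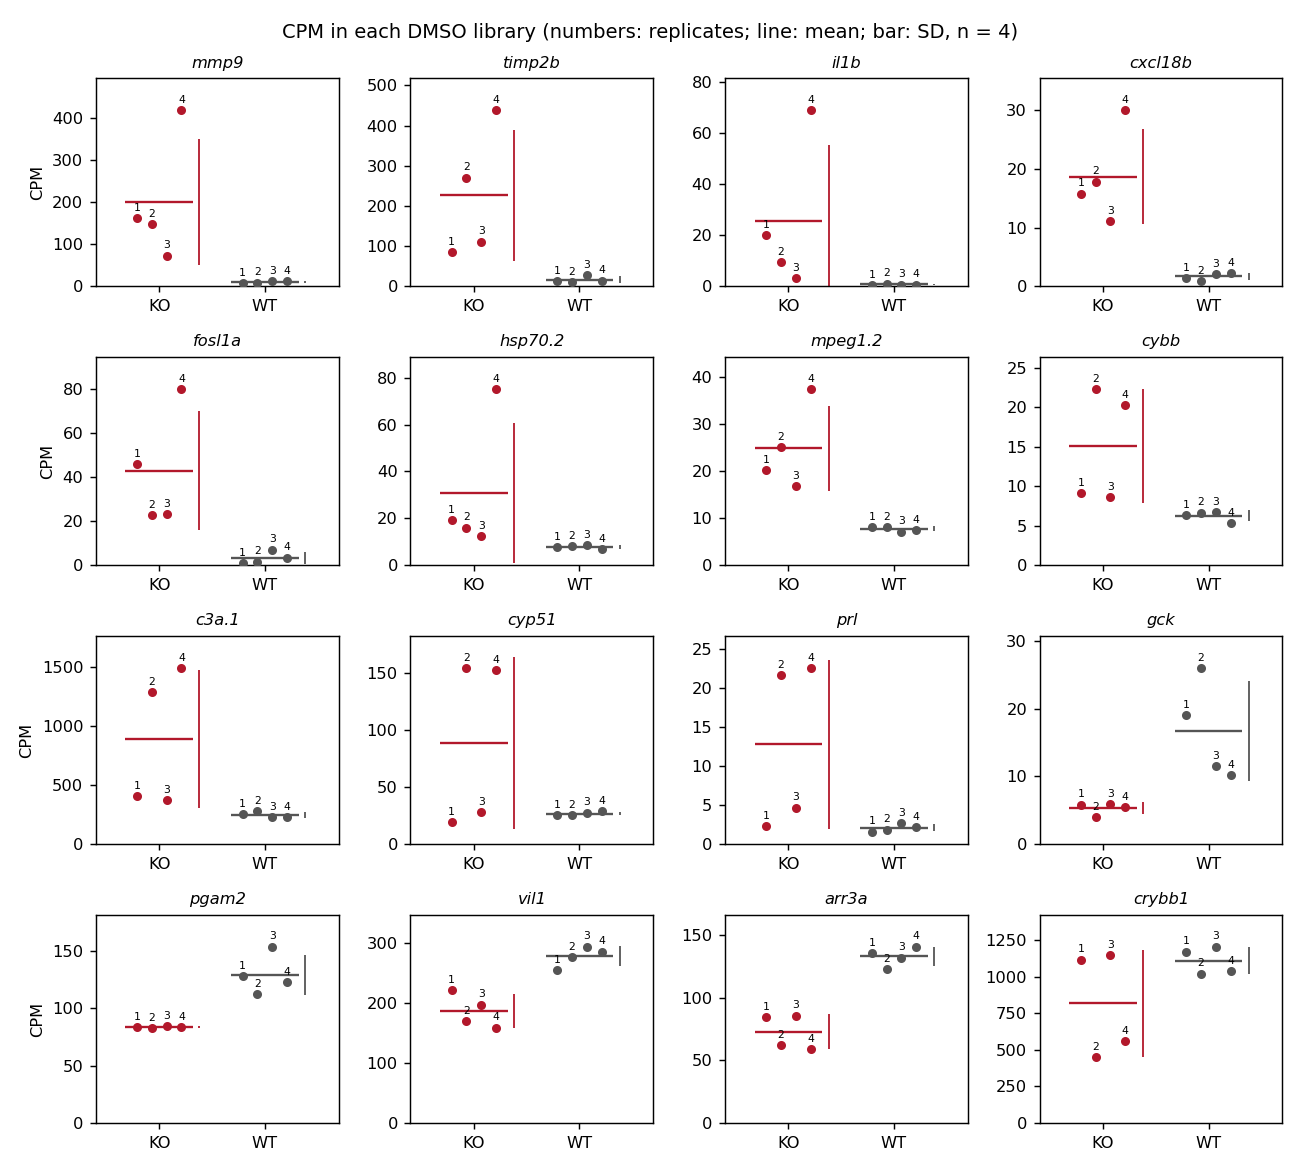
CPM of 16 genes in each DMSO library on linear axes that start at 0, with KO (red) left of WT (grey); points carry the replicate number, the horizontal line is the mean and the vertical bar the SD (n = 4), cut off at 0. In mmp9, cxcl18b, fosl1a and mpeg1.2 all KO points lie above all WT points, in cyp51, prl and crybb1 KO libraries 2 and 4 stand apart while KO libraries 1 and 3 lie near WT, and in pgam2 and gck all KO points lie below all WT points.

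Early response and stress genes held a few members far from WT beside many that were not. Of 41 tested AP-1 and immediate early genes, 10 were higher at an unadjusted p under 0.05 (24.4%) and none lower, and the median was 0.09. By role, 6 of 14 AP-1 transcription factors were higher (median 0.85), as were 2 of 20 other early factors (median -0.09). The AP-1 gene fosl1a had 45.9, 22.7, 23.3 and 80.1 CPM in KO and 0.979, 1.6003, 7.07 and 3.46 CPM in WT libraries (log2 fold change 3.72, edgeR adjusted p 0.0659), so that all 4 KO libraries exceeded every WT library by more than 3-fold, although the adjusted threshold was missed. Its relative fosl2 had 26.2, 66.0, 36.2 and 70.31 CPM in KO and 16.5, 18.3, 23.4 and 21.4 CPM in WT libraries (log2 fold change 1.32, edgeR adjusted p 0.141). Both separated the groups. The member with the highest mean CPM, jun, overlapped between the groups, with 117, 177, 138 and 179 CPM in KO and 105, 102, 131 and 122 CPM in WT libraries. When KO libraries 2 and 4 were left out, 2 of 42 genes were higher at an unadjusted p under 0.05.

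Among 41 tested cytosolic heat shock genes, 9 were higher (22%) and none lower at an unadjusted p under 0.05, with 8 separating the groups and a median of 0.15. The inducible HSP70 chaperone gene hsp70.2 had 19.4, 16.03, 12.3 and 75.2 CPM in KO and 7.89, 8.19, 8.61 and 6.72 CPM in WT libraries (log2 fold change 1.97, edgeR adjusted p 0.0743). The near-identical paralogs hsp70.1 (log2 fold change 1.86) and hsp70.3 (log2 fold change 1.87) gave similar fold changes, but reads shared by these copies cannot be assigned with certainty. KO library 4 was more than 3-fold above the other KO libraries for hsp70.2, and all 4 exceeded every WT library. After the removal of KO libraries 2 and 4, 6 of 41 genes were higher. The constitutive HSP90 gene hsp90ab1 had 3667, 4541, 3757 and 4701 CPM in KO and 4049, 3869.5, 3627 and 3737 CPM in WT libraries, which overlapped. Other stress lists also held higher members. These were 9 of 26 p53 targets (34.6%, median 0.27) and 5 of 37 endoplasmic reticulum stress genes (13.5%, median 0.19). Higher too were 5 of 32 amino acid stress genes (15.6%, median 0.16) and 11 of 46 hypoxia genes (23.9%, median 0.21). In the order given, 0, 0, 0 and 2 members were lower. Without KO libraries 2 and 4, 0, 0, 0 and 1 of these members were higher at an unadjusted edgeR p under 0.05. The hypoxia and hormone-regulated gene igfbp1a, which encodes an insulin-like growth factor binding protein, had 41.8, 199, 64.8 and 227 CPM in KO and 31.9, 27.2, 33.6 and 31.8 CPM in WT libraries (log2 fold change 2.097, edgeR adjusted p 0.13), with KO libraries 2 and 4 far above the other 6 libraries and KO libraries 1 and 3 above WT.

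Markers of phagocytes were higher in KO embryos. Of 29 tested macrophage markers, 21 were higher at an unadjusted p under 0.05 (72.4%), none was lower, 11 separated the groups, and the median log2 fold change was 0.96. The summed level of the list was 168.5, 403.7, 163.9 and 443.7 CPM in KO libraries 1 to 4, against 123.7 to 135.7 CPM in the WT libraries, so KO libraries 2 and 4 held about 3 times the WT level and KO libraries 1 and 3 were just above it. The pore-forming protein gene mpeg1.2 (ENSDARG00000043093, chromosome 8, 19356072 to 19359834) was the member that rose past the adjusted threshold, with 20.2, 25.1, 16.9 and 37.5 CPM in KO and 8.19, 8.16, 7.17 and 7.40 CPM in WT libraries (log2 fold change 1.69, SE 0.28, edgeR adjusted p 0.0266). The scavenger receptor gene marco had 4.24, 10.6, 3.45 and 11.7 CPM in KO and 1.605, 2.03, 2.03 and 2.14 CPM in WT libraries (log2 fold change 1.94, edgeR adjusted p 0.149). The myeloid transcription factor gene spi1a had 5.04, 13.5, 5.38 and 15.7 CPM in KO and 3.48, 4.94, 2.97 and 3.19 CPM in WT libraries (log2 fold change 1.44, edgeR adjusted p 0.183). For both, KO libraries 2 and 4 were 2-fold or more above KO libraries 1 and 3, and all 4 exceeded WT. With KO libraries 2 and 4 left out, 1 of 32 macrophage markers was higher at an unadjusted p under 0.05 and the median was 0.31.

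Neutrophil markers followed, with 12 of 21 higher (57.1%), none lower, 10 separating the groups and a median of 1.01. The NADPH oxidase gene cybb had 9.19, 22.3, 8.66 and 20.3 CPM in KO and 6.34, 6.67, 6.76 and 5.30 CPM in WT libraries (log2 fold change 1.27, edgeR adjusted p 0.126). All 4 KO libraries were above WT for cybb. Listed as a marker of neutrophils and also a member of the secretory calcium-binding phosphoproteins, scpp8 had 17.7, 10.96, 1.90 and 36.8 CPM in KO and 0.680, 0.759, 1.096 and 0.509 CPM in WT libraries (log2 fold change 4.46, SE 0.85, edgeR adjusted p 0.0362). The carboxypeptidase gene cpa5, the listed marker with the highest mean CPM and one that the pancreas list shares, overlapped between the groups, with 1563, 1176, 1394 and 1102 CPM in KO and 1624, 1479, 880.3 and 1122 CPM in WT libraries. The list's summed level, between 1827 and 2089.7 CPM in KO libraries and between 1252 and 2026 CPM in WT libraries, is mostly this gene and overlapped too. When KO libraries 2 and 4 were left out, 3 of 22 neutrophil markers were higher. Of 15 lymphocyte markers, 1 was higher and 1 lower at an unadjusted p under 0.05 (median -0.15), and the list summed to between 226 and 280.2 CPM in KO libraries and between 276 and 292 CPM in WT libraries. Among 39 tested interferon response genes, 15 were higher (38.5%), none lower, and the median was 0.51. After the removal of KO libraries 2 and 4, 5 of 41 were higher. The signal transducer gene stat1b had 1.72, 10.6, 1.68 and 10.8 CPM in KO and 0.544, 0.461, 0.783 and 0.475 CPM in WT libraries (log2 fold change 3.45, edgeR adjusted p 0.0683), again highest in KO libraries 2 and 4 and above WT in all 4.

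**Figure D3:**
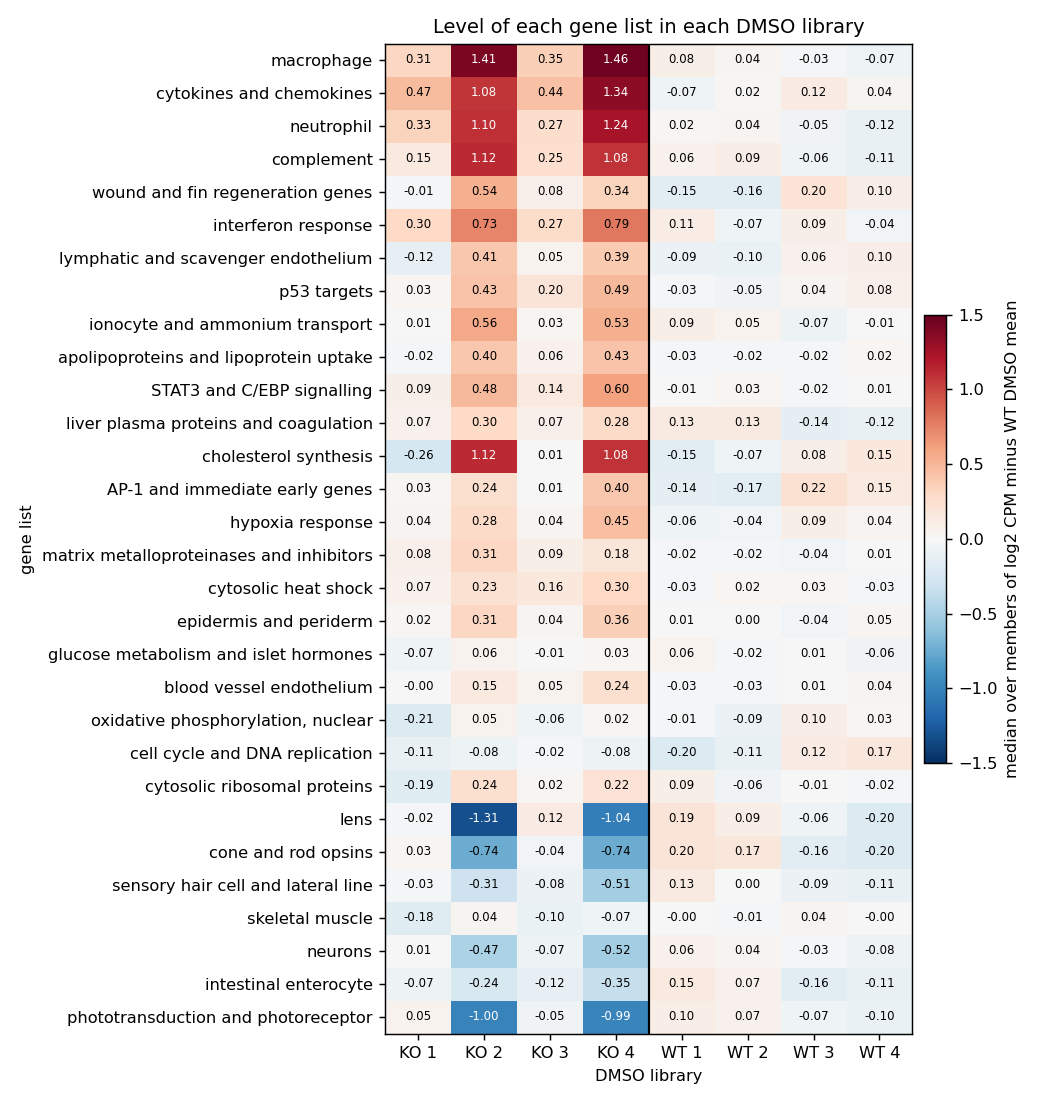
Each cell gives, for 1 DMSO library (columns, KO left of WT) and 1 gene list (rows), the median over the members of log2 CPM minus the member's mean in the 4 WT DMSO libraries, on a colour scale from blue (lower) to red (higher). Cytokines, macrophage markers, interferon genes and complement are above 0 in all 4 KO libraries (0.15 to 1.46) and highest in KO libraries 2 and 4. Cholesterol synthesis, lens and phototransduction are far from 0 only in KO libraries 2 and 4.

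Many complement and liver plasma protein genes were higher too, mainly in KO libraries 2 and 4, as for the macrophage markers. The complement and macrophage lists share the genes c1qa, c1qb and c1qc. Of 31 tested complement genes, 17 were higher (54.8%) and 1 lower at an unadjusted p under 0.05, and the median log2 fold change was 0.65. The central complement component gene c3a.1 had 407, 1289, 376 and 1492 CPM in KO and 256, 277, 231 and 227 CPM in WT libraries (log2 fold change 1.85, edgeR adjusted p 0.149). Although KO libraries 1 and 3 lay above all WT libraries for this gene, KO libraries 2 and 4 were about 3 times higher still. The complement factor B gene cfb had 26.9, 102, 35.7 and 122 CPM in KO and 21.0, 18.6, 15.9 and 16.5 CPM in WT libraries (log2 fold change 1.99, edgeR adjusted p 0.14). The membrane attack component gene c7b had 10.6, 7.02, 4.01 and 8.82 CPM in KO and 1.66, 2.17, 3.54 and 0.713 CPM in WT libraries (log2 fold change 1.91, edgeR adjusted p 0.1). In c7b KO library 1 was the highest. The median of the complement list was 0.15, 1.12, 0.25 and 1.08 in KO libraries 1 to 4, relative to the WT mean, and with KO libraries 2 and 4 left out 1 of 33 members was higher at an unadjusted p under 0.05.

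Coagulation factor genes were higher in 8 of 15 cases (median 0.45, none lower), as were 5 of 21 carriers and inhibitors (1 lower) and 1 of 16 hepatocyte enzymes and markers (2 lower). The fibrinogen α gene fga had 287, 987, 328 and 1168 CPM in KO and 255, 257, 282 and 275 CPM in WT libraries (log2 fold change 1.37, edgeR adjusted p 0.254). The copper oxidase gene cp had 197, 445, 197 and 512 CPM in KO and 149, 144, 119 and 124 CPM in WT libraries (log2 fold change 1.33, edgeR adjusted p 0.159). KO libraries 1 and 3 were just above WT for both genes and KO libraries 2 and 4 about 2 to 4 times higher. The cytochrome P450 gene cyp2y3 was lower, with 12.6, 8.19, 11.2 and 6.52 CPM in KO and 16.8, 18.7, 25.1 and 23.7 CPM in WT libraries (log2 fold change -1.13, edgeR adjusted p 0.0787), and it was below WT in every KO library. Without KO libraries 2 and 4, 1 of the 52 plasma protein, coagulation and hepatocyte genes was higher and 2 were lower. The list also depended on the WT libraries. With WT libraries 3 and 4 left out, 2 of the 52 were higher and 1 lower (median 0.02), where 4.41% of all genes were higher. With WT libraries 1 and 2 left out, 12 were higher and 4 lower (median 0.45), where 5.66% of all genes were higher. The liver was not measured apart from the rest of the embryo, so its size cannot be told apart from these levels.

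Lipid genes also differed in 2 of the 4 KO libraries. Among 28 tested cholesterol synthesis genes, 7 were higher (25%), none lower, and the median was 0.55, while the list's median in KO libraries 1 to 4 was -0.26, 1.12, 0.01 and 1.08. The demethylase gene cyp51 had 19.1, 155, 27.8 and 153 CPM in KO and 25.3, 25.6, 27.6 and 28.7 CPM in WT libraries (log2 fold change 1.72, edgeR adjusted p 0.314), so that KO library 1 lay below WT, KO library 3 within the WT range and KO libraries 2 and 4 more than 5-fold above it. When KO libraries 2 and 4 were left out, 0 of 28 members reached an unadjusted edgeR p under 0.05 and the median was -0.11. In the lipoprotein list, 13 of 43 genes were higher (30.2%) and 3 lower (6.98%), with 1 higher and 2 lower once KO libraries 2 and 4 were left out. The hepatic lipase gene lipca had 2.71, 8.63, 4.21 and 10.14 CPM in KO and 2.23, 1.6003, 0.657 and 0.747 CPM in WT libraries (log2 fold change 2.28, edgeR adjusted p 0.0997), all KO values lying above all WT values. The high-density lipoprotein receptor gene scarb1 (ENSDARG00000101557, chromosome 10, 44699734 to 44748270), which also supplies carotenoids to pigment cells in zebrafish, fell, with 31.9, 24.7, 30.1 and 22.2 CPM in KO and 41.4, 41.1, 57.4 and 55.2 CPM in WT libraries (log2 fold change -0.84, SE 0.15, edgeR adjusted p 0.0301). All 4 KO libraries were below all WT libraries for scarb1, with KO libraries 2 and 4 the lowest.

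Glucose metabolism did not move as a block. Of 64 tested genes, 10 were higher (15.6%) and 8 lower (12.5%) at an unadjusted p under 0.05, and the median was 0.00. The 3 that fell past the adjusted threshold act at or near the entry into glycolysis or in muscle. The glucokinase gene gck (ENSDARG00000068006, chromosome 8, 40476811 to 40490593) had 5.84, 3.97, 5.94 and 5.46 CPM in KO libraries 1 to 4, against 19.1, 26.0, 11.5 and 10.19 CPM in WT libraries 1 to 4 (log2 fold change -1.65, SE 0.34, edgeR adjusted p 0.0498). WT libraries 1 and 2 were the highest and WT libraries 3 and 4 about 2 times the KO level, while the KO libraries were close together. The phosphoglucose isomerase gene gpib (ENSDARG00000103826, chromosome 18, 402048 to 423921) had 61.8, 51.6, 57.0 and 55.1 CPM in KO and 83.2, 77.9, 75.3 and 68.4 CPM in WT libraries (log2 fold change -0.43, SE 0.077, edgeR adjusted p 0.0301). The muscle phosphoglycerate mutase gene pgam2 (ENSDARG00000057571, chromosome 21, 19001669 to 19006641) had 83.4, 82.8, 84.6 and 83.3 CPM in KO and 128, 112, 154 and 122.7 CPM in WT libraries (log2 fold change -0.63, SE 0.11, edgeR adjusted p 0.0301). A further hexokinase gene outside the list, hkdc1 (ENSDARG00000038703, chromosome 13, 23017498 to 23031803), fell too, with 5.55, 5.82, 4.65 and 5.95 CPM in KO and 8.54, 11.8, 9.99 and 8.11 CPM in WT libraries (log2 fold change -0.81, SE 0.16, edgeR adjusted p 0.0457). In these 3 genes the KO libraries were again close together and all below WT. After the removal of KO libraries 2 and 4, 9 of the 64 listed genes were lower and 1 higher at an unadjusted p under 0.05.

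In the opposite direction, the gluconeogenesis gene pck1 had 236, 977, 271 and 958 CPM in KO and 193, 176, 156 and 164 CPM in WT libraries (log2 fold change 1.82, edgeR adjusted p 0.142). The glycolytic regulator gene pfkfb3 had 39.9, 110.3, 42.5 and 117 CPM in KO and 27.0, 28.1, 30.3 and 30.3 CPM in WT libraries (log2 fold change 1.42, edgeR adjusted p 0.13). The glucose transporter gene slc2a3b had 5.61, 8.19, 5.18 and 14.7 CPM in KO and 3.94, 3.17, 2.47 and 2.85 CPM in WT libraries (log2 fold change 1.44, edgeR adjusted p 0.0816). All 3 separated the groups, with KO libraries 2 and 4 the highest. Of 6 islet hormone genes, 3 were higher and none lower (median 1.16).

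**Figure D4:**
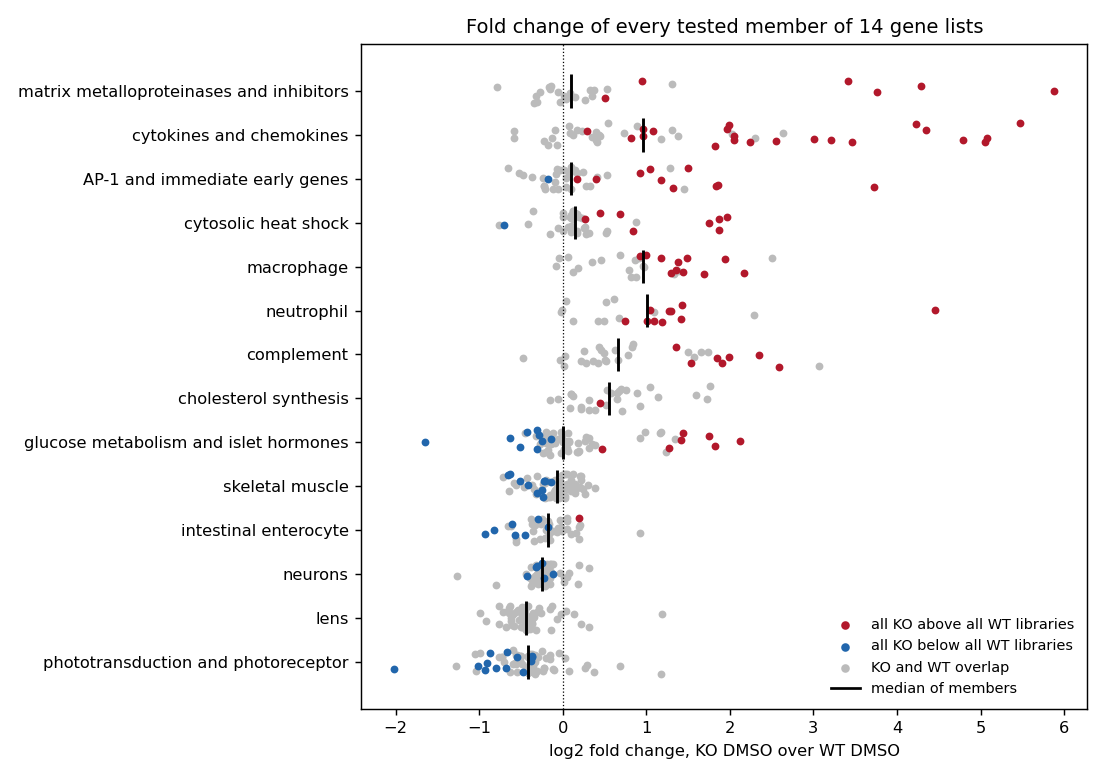
Log2 fold change of KO DMSO over WT DMSO (horizontal axis) for every tested member of 14 gene lists (rows), with each point 1 gene, red or blue where all KO libraries lay above or below all WT libraries and grey where they overlapped, and a black line at the list's median. The matrix metalloproteinase list holds a few members above 3 with its median near 0, the macrophage list is shifted as a whole to a median of 0.96, and the lens list is shifted to -0.44 without 1 member that separates the groups.

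Among the lists of 10 or more tested genes, that of phototransduction had the largest share of lower members. Of 77 tested phototransduction and photoreceptor genes, 17 were lower (22.1%) and 1 higher (1.3%) at an unadjusted p under 0.05, 13 lay below WT in all 4 KO libraries (16.9%), and the median log2 fold change was -0.41. The cone arrestin gene arr3a (ENSDARG00000056511, chromosome 10, 26800213 to 26811397), which ends the light response, fell past the adjusted threshold, with 84.3, 62.2, 85.7 and 59.101 CPM in KO libraries 1 to 4, against 136, 123.1, 132 and 141 CPM in WT libraries 1 to 4 (log2 fold change -0.87, SE 0.16, edgeR adjusted p 0.0335). The guanylate cyclase activator gene guca1b had 0.478, 0.411, 0.229 and 0.201 CPM in KO and 2.58, 0.651, 1.502 and 0.577 CPM in WT libraries (log2 fold change -2.02, edgeR adjusted p 0.11), low levels that rest on few counts. The retinol dehydrogenase gene rdh8a, a step of the visual cycle, had 24.3, 19.9, 25.3 and 20.5 CPM in KO and 27.7, 26.9, 30.1 and 31.2 CPM in WT libraries (log2 fold change -0.36, edgeR adjusted p 0.149). These 3 genes were lower in every KO library. The member with the highest mean CPM, the cone transducin gene gnb3b, was not: it had 638, 277, 592 and 267 CPM in KO and 702, 665, 572 and 558 CPM in WT libraries (log2 fold change -0.49, edgeR adjusted p 0.658).

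Visual pigments and lens proteins differed in KO libraries 2 and 4 and overlapped with WT in KO libraries 1 and 3. The summed level of 16 opsin genes was 8069, 3755, 8009 and 3791 CPM in KO libraries 1 to 4, against 7827 to 8908 CPM in the WT libraries. The rod pigment gene rho had 3574, 1757, 3652 and 1715 CPM in KO and 3648, 3296, 3543 and 3572 CPM in WT libraries (log2 fold change -0.39, edgeR adjusted p 0.707), and 1 of the 16 opsins was lower at an unadjusted p under 0.05 (6.25%). For 60 tested lens genes the sum was 10615, 4329, 11492 and 5336 CPM in KO libraries, against 9609 to 12271 CPM in WT libraries. The crystallin gene crybb1 had 1115, 450.1, 1146 and 556 CPM in KO and 1170.3, 1019.8, 1204 and 1037 CPM in WT libraries (log2 fold change -0.44, edgeR adjusted p 0.681). In KO libraries 2 and 4, 52 of the 60 lens genes lay below every WT library, against 9 in KO library 1 and 1 in KO library 3. Over all tested genes that share was 29.4% and 29.5% in KO libraries 2 and 4, and 21.8% and 17.2% in KO libraries 1 and 3. With KO libraries 2 and 4 left out, the medians of the opsin, phototransduction and lens lists were -0.10, -0.02 and 0.03, and 5 of 78 phototransduction genes were lower at an unadjusted p under 0.05.

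Neuronal genes were lower by a smaller amount. Of 66 tested genes, 8 were lower (12.1%) and none higher at an unadjusted p under 0.05, and the median was -0.25. The γ-synuclein gene sncga had 12.5, 9.59, 13.96 and 9.68 CPM in KO and 15.21, 14.3, 15.6 and 16.4 CPM in WT libraries (log2 fold change -0.43, edgeR adjusted p 0.13). The list's median was 0.01, -0.47, -0.07 and -0.52 in KO libraries 1 to 4, and without KO libraries 2 and 4 no member passed the unadjusted edgeR threshold and the median was -0.04. Oligodendrocyte and motor neuron precursors are marked by olig1 and olig2. The gene olig1 had 1.28, 0.377, 1.29 and 0.259 CPM in KO and 3.05, 3.23, 2.25 and 2.55 CPM in WT libraries (log2 fold change -1.78, edgeR adjusted p 0.146). The related gene olig2 had 10.24, 8.22, 11.7 and 6.84 CPM in KO and 13.003, 14.2, 14.9 and 12.5 CPM in WT libraries (log2 fold change -0.56, edgeR adjusted p 0.218), with all KO below all WT libraries in both genes and KO libraries 2 and 4 the lowest. The glia list as a whole had 2 of 33 members higher and 2 lower (median 0.00). Of 30 hair cell and lateral line genes, 3 were lower and none higher (median -0.25), and 0 were lower by edgeR's unadjusted p without KO libraries 2 and 4 (median -0.05).

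A few muscle genes were lower while the list's median stayed near 0. Of 72 tested skeletal muscle genes, 8 were lower (11.11%) and none higher at an unadjusted p under 0.05, 10 lay below WT in all KO libraries (13.9%), and the median was -0.07. Next to pgam2, the muscle glycogen phosphorylase gene pygma had 161, 147, 147 and 147 CPM in KO and 209.5, 192, 242 and 213 CPM in WT libraries (log2 fold change -0.51, edgeR adjusted p 0.0809), below WT in every KO library. Without KO libraries 2 and 4, 3 of 73 muscle genes were lower and 1 was higher. The actin gene actc1c, which is outside the list (ENSDARG00000079111, chromosome 25, 14087045 to 14125498), fell past the adjusted threshold, with 108, 87.1, 101 and 103 CPM in KO and 171, 169.7, 156 and 155 CPM in WT libraries (log2 fold change -0.71, SE 0.13, edgeR adjusted p 0.0345). The intermediate filament gene desmb (ENSDARG00000005221, chromosome 6, 13871641 to 13891727) fell as well, with 7.66, 6.99, 5.51 and 7.04 CPM in KO and 12.4, 9.01, 9.11 and 11.2 CPM in WT libraries (log2 fold change -0.62, SE 0.13, edgeR adjusted p 0.0498). Neither gene overlapped between the groups. Its paralog desma, listed with notochord genes, had 337, 589.9, 396 and 647 CPM in KO and 343, 325, 321 and 317 CPM in WT libraries (log2 fold change 0.59, edgeR adjusted p 0.372), higher than every WT library in KO libraries 2 to 4 but not in KO library 1.

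Heart genes, of interest because the pathway guides heart precursors, gave few differences at an unadjusted p under 0.05. The heart was not measured apart from the rest of the embryo. Of 27 cardiac muscle and natriuretic peptide genes, 2 were higher (7.41%, near the 6.86% of all genes) and none lower (median -0.12). Of 18 cardiac transcription factors, 1 was lower (5.56%, median -0.03). The 2 were the sarcomeric gene tcap, which skeletal muscle also uses, with 15.5, 73.0, 17.95 and 66.4 CPM in KO and 5.36, 5.94, 11.02 and 9.27 CPM in WT libraries (log2 fold change 2.45, edgeR adjusted p 0.104). The natriuretic peptide gene nppb, with 2.26, 1.71, 1.701 and 0.804 CPM in KO and 0.326, 0.542, 0.407 and 0.781 CPM in WT libraries (log2 fold change 1.66, edgeR adjusted p 0.14). All KO libraries exceeded all WT libraries for both, though for nppb KO library 4 was just above the highest WT library. In 3 of the 27 cardiac muscle and natriuretic peptide genes all KO libraries lay below all WT libraries, against 3.41% of all genes. Of 41 blood vessel genes, 5 were higher (12.2%) and none lower (median 0.12), and of 16 lymphatic and scavenger endothelium genes, 6 were higher (37.5%, median 0.27). The hyaluronan receptor gene lyve1a had 1.63, 12.8, 4.80 and 14.6 CPM in KO and 0.979, 1.57, 2.91 and 3.29 CPM in WT libraries (log2 fold change 1.95, edgeR adjusted p 0.256), and KO library 1 overlapped with WT. When KO libraries 2 and 4 were left out, 1 of 41 vessel genes and 0 of 16 lymphatic genes were higher at an unadjusted edgeR p under 0.05. Of 33 red cell genes, 2 were higher and 2 lower (median -0.05).

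Some gut genes were lower, and none passed the adjusted threshold. Of 42 tested enterocyte genes, 7 were lower (16.7%), none was higher, 7 lay below WT in all KO libraries, and the median was -0.18; without KO libraries 2 and 4, 5 of 42 were lower. As a whole the list overlapped: its summed level was between 3849.9 and 3989 CPM in KO libraries and between 3606 and 4779 CPM in WT libraries, the medians of KO libraries 1 and 3 (-0.07 and -0.12) lay within the WT range (-0.16 to 0.15), and with WT libraries 1 and 2 left out the median was -0.02. The brush border gene vil1 had 221, 169.8, 197 and 159 CPM in KO and 254, 276, 293 and 285 CPM in WT libraries (log2 fold change -0.57, edgeR adjusted p 0.0816). The intestinal alkaline phosphatase gene alpi.2 had 7.88, 6.13, 7.41 and 5.23 CPM in KO and 9.38, 9.60, 14.6 and 13.5 CPM in WT libraries (log2 fold change -0.82, edgeR adjusted p 0.131). The gene amn, for a membrane subunit of the vitamin B12 and protein uptake receptor, had 5.104, 4.18, 4.14 and 4.22 CPM in KO and 6.23, 6.27, 5.63 and 6.01 CPM in WT libraries (log2 fold change -0.45, edgeR adjusted p 0.209). All 3 were lower in every KO library. Of 23 exocrine pancreas genes, 1 was higher and 2 lower (median -0.25).

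In the skin, 9 of 41 epidermis and periderm genes were higher (22%) and 3 lower, with a median of 0.19, and 12 of 36 ionocyte genes were higher (33.3%) and 2 lower, with a median of 0.33. Of 20 keratins, 1 was higher and 3 were lower (15%), with a median of -0.12. As a whole the keratin list overlapped: its median was -0.20, 0.01, -0.12 and 0.05 in KO libraries 1 to 4, against -0.13 to 0.18 in the WT libraries. With WT libraries 1 and 2 left out, its median was 0.03, and 1 keratin was lower and 0 higher. With KO libraries 2 and 4 left out, 4 of the 20 keratins were lower and none higher. The ammonium transporter gene rhcgb had 15.09, 33.5, 15.97 and 37.7 CPM in KO and 13.1, 11.99, 10.6 and 12.7 CPM in WT libraries (log2 fold change 1.08, edgeR adjusted p 0.138). It exceeded WT in every KO library, most in KO libraries 2 and 4. The keratinocyte envelope gene evplb was lower, with 195, 142, 179 and 144 CPM in KO and 228, 218, 209.8 and 214 CPM in WT libraries (log2 fold change -0.40, edgeR adjusted p 0.238), also without overlap. After the removal of KO libraries 2 and 4, 1 of 42 epidermal genes was higher and 1 lower, and 0 of 36 ionocyte genes were higher and 2 lower at an unadjusted edgeR p under 0.05. Of 40 connective tissue matrix genes, 6 were higher and 1 lower (median 0.12), and 1 was higher and 1 lower without KO libraries 2 and 4, where the median was -0.03.

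Of 10 tested secretory calcium-binding phosphoprotein genes, a family known from teeth and bone, scpp8 rose and 1 other gene fell. This was scpp9 (ENSDARG00000087178, chromosome 1, 43969797 to 43973068), with 3.92, 4.66, 4.60 and 4.42 CPM in KO and 9.11, 6.84, 10.27 and 12.3 CPM in WT libraries (log2 fold change -1.13, SE 0.23, edgeR adjusted p 0.0475). Of 48 cartilage and bone genes, 2 were higher and 3 lower (median -0.16), and of 51 collagens, 3 were higher and 1 lower (median -0.10). In the pigment lists, 1 of 16 melanin and melanosome genes was lower (median -0.18), the melanosome glycoprotein gene gpnmb, with 111, 90.9, 93.6 and 103 CPM in KO and 131, 143, 119.9 and 138 CPM in WT libraries (log2 fold change -0.42, edgeR adjusted p 0.0743), below WT in every KO library. Of 31 kidney genes, 7 were higher and 4 lower (median 0.12), but 0 were higher and 3 lower by edgeR's unadjusted p without KO libraries 2 and 4. The pituitary hormone gene prl, for prolactin, had 2.26, 21.6, 4.67 and 22.6 CPM in KO and 1.605, 1.84, 2.69 and 2.21 CPM in WT libraries (log2 fold change 2.62, edgeR adjusted p 0.181), again apart in KO libraries 2 and 4.

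Apart from ribosome biogenesis, housekeeping and growth programmes stayed near or below the background shares. None of 80 cytosolic ribosomal protein genes reached an unadjusted edgeR p under 0.05 in either direction (median 0.08), and of 85 nuclear oxidative phosphorylation genes, 3 were lower and none higher (median -0.06). Of 88 cell cycle and replication genes, 1 was higher and 1 lower (median -0.06), of 37 proteasome genes 1 and 1 (median 0.10), of 54 targets of developmental signalling pathways 1 and 1 (median -0.05), of 47 Hox genes 0 and 2 (median 0.00), and of 42 circadian clock genes 1 and 0 (median 0.01). The 1 higher clock gene had a WT mean under 0.345 CPM, and nothing is read from it. The lists named here were not level in every library. The ribosomal list's median was -0.19, 0.24, 0.02 and 0.22 in KO libraries 1 to 4, and 61 of its 80 genes lay below every WT library in KO library 1 while 70 and 62 lay above every WT library in KO libraries 2 and 4. In ribosome biogenesis 10 of 78 genes were higher (12.8%) and none lower (median 0.20), but none separated the groups, and 3 were higher without KO libraries 2 and 4. Among developmental targets, the Notch target gene hey1 was lower in every KO library, with 34.3, 29.7, 33.4 and 31.1 CPM in KO and 42.3, 39.7, 40.7 and 44.2 CPM in WT libraries (log2 fold change -0.38, edgeR adjusted p 0.0743).

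Of 13 linker and variant histone genes, 1 fell past the adjusted threshold and none was higher. This was h3f3c (ENSDARG00000033009, chromosome 5, 36944533 to 36949476), with 26.2, 24.2, 24.5 and 31.5 CPM in KO and 41.7, 47.0, 64.5 and 64.3 CPM in WT libraries (log2 fold change -1.03, SE 0.19, edgeR adjusted p 0.0301). Further called genes belong to no list. Among them, zgc:112146 (ENSDARG00000104829, chromosome 3, 49074008 to 49079318) fell, with 10.27, 5.75, 9.34 and 4.42 CPM in KO and 16.8, 17.4, 20.1 and 17.3 CPM in WT libraries (log2 fold change -1.26, SE 0.26, edgeR adjusted p 0.0498). Among genes known only by a clone name, si:ch211-153b23.3 (ENSDARG00000104919, chromosome 14, 11430796 to 11438060) rose, with 6.67, 21.9, 8.99 and 41.6 CPM in KO and 0.680, 1.06, 2.16 and 1.22 CPM in WT libraries (log2 fold change 3.96, SE 0.72, edgeR adjusted p 0.0301). CABZ01088134.1 rose as well, from few reads, with 0.734, 2.67, 0.965 and 2.79 CPM in KO and 0.109, 0.163, 0.157 and 0.0679 CPM in WT libraries (log2 fold change 3.80, SE 0.76, edgeR adjusted p 0.0465). Neither overlapped between the groups, and both were highest in KO libraries 2 and 4. All WT values of CABZ01088134.1 were under 0.345 CPM, about the level of the low-count filter, so nothing is read from its call or separation. The receptor gene tnfrsf18 had 24, 17, 25 and 20 counts in KO and 8, 4, 3 and 4 counts in WT libraries (log2 fold change 2.16, SE 0.42, edgeR adjusted p 0.0425). Its WT mean of 0.139 CPM was also under that level, and nothing is read from its call. By class, 32 of the 40 called genes were protein coding, 7 were loci without an Ensembl identifier, and 1 had another biotype. Of the 1854 genes higher at an unadjusted p under 0.05, 284 (15.3%) were in any of the 62 lists, of the 1041 lower ones 113 (10.9%), and of all tested genes 2173 (8.05%), so most of the differing genes lie outside the groups described.

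Since mutations are carried on a stretch of linked chromosome, the surroundings of the receptor genes were counted too. Within 5 Mb of aplnra, 134 other genes were tested, of which 12 were higher (8.96%) and 7 lower (5.22%) at an unadjusted p under 0.05. The called gene among them was gck, 149.4 kb from aplnra. Within 5 Mb of aplnrb, 8 of 150 were higher and 8 lower (5.33% each), and none was called by edgeR. Chromosome 10 as a whole held 6 of the 40 called genes among 790 tested (0.759%), and chromosome 8 held 4 among 964 (0.415%), against 0.148% over all genes. Chromosomes 12 and 16, which hold no apelin receptor gene, had 4 of 817 (0.490%) and 4 of 1044 (0.383%). The share on chromosome 10 was the largest of the numbered chromosomes. How much of this follows linkage was not tested.

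The called genes were also followed in the 8 libraries of each ML233 treatment, where KO and WT embryos were again compared with each other. These libraries are not the DMSO ones, but the labels do not say whether they came from other clutches, so they are not shown to be independent. They also entered the spread with which the DMSO genes were called, which favours genes with little spread in them. The shares below are therefore not separate support for the calls. The called genes include il11b, lepb, tnfrsf18 and CABZ01088134.1, whose mean WT DMSO levels were under that of the low-count filter. So was that of a called locus without an Ensembl identifier on chromosome 12 (0.083 CPM). Nothing is read from the shares for these genes. All 28 genes that rose in DMSO had a positive fold change at 3 h and at 24 h, and 27 and 23 of them separated all KO from all WT libraries, against 3.89% and 3% of all genes. At an adjusted p under 0.05, 13 of the 28 were called at 3 h and 22 at 24 h, where edgeR called 0.148% and 0.459% of all genes. All 12 genes that fell had a negative fold change at both times, 11 and 10 separated the groups (2.93% and 2.87% of all genes), and 4 and 6 were called. For mmp9 the log2 fold change was 4.29 in DMSO, 3.62 at 3 h and 3.97 at 24 h, and for arr3a it was -0.87, -1.14 and -1.03. For gck it was -1.65, -0.998 and -0.60, with overlapping groups at both later times and the difference between times not tested (edgeR adjusted p 0.201 and 0.405).

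**Figure D5:**
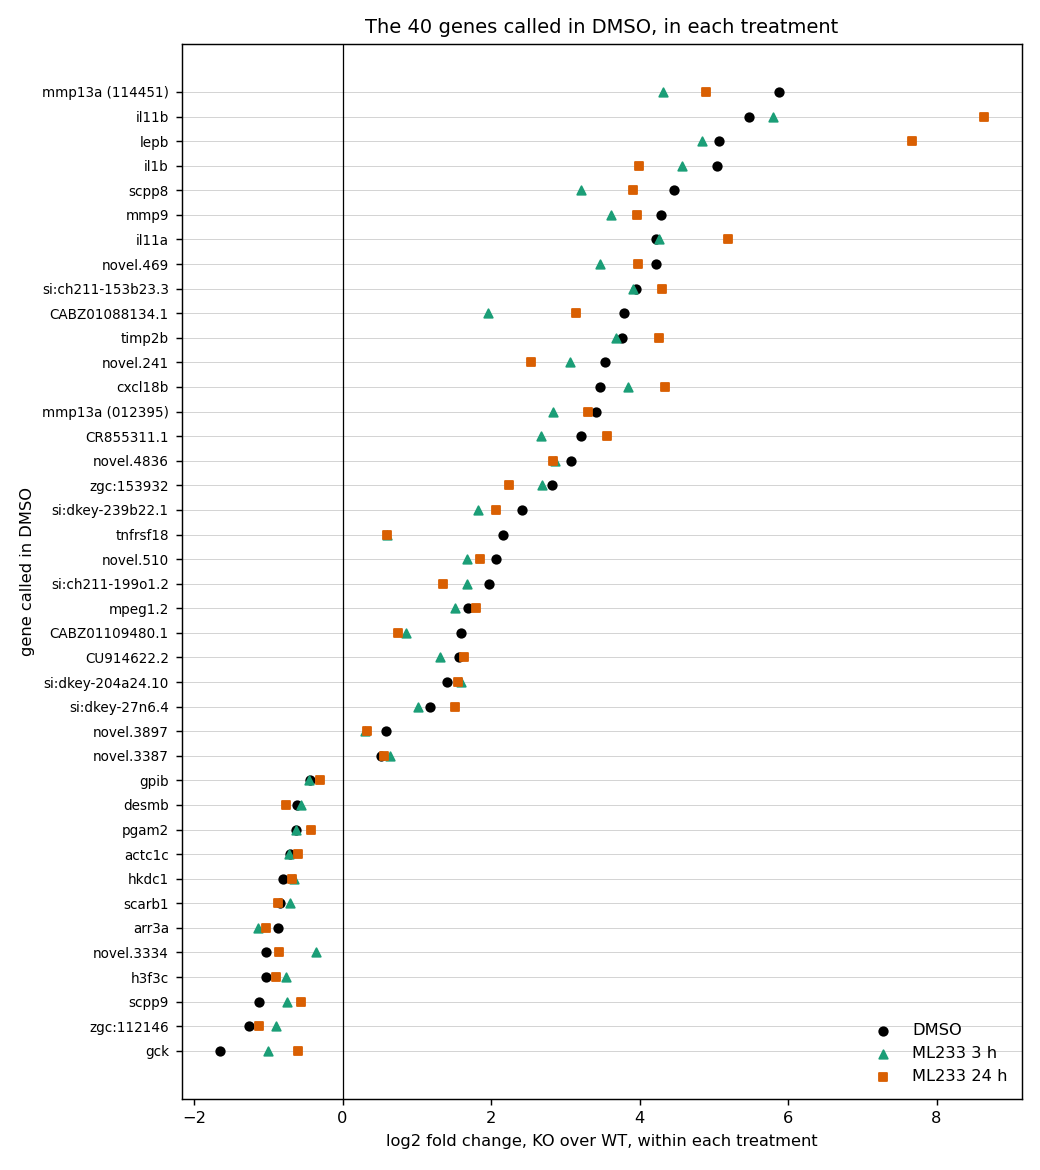
Log2 fold change of KO over WT (horizontal axis) for the 40 genes called in DMSO (rows, ordered by their DMSO value) in DMSO (circles), after 3 h (triangles) and after 24 h (squares) of ML233, each from the 4 KO and 4 WT libraries of that treatment. All markers of the 28 genes that rose lie right of 0 and all markers of the 12 that fell lie left of 0. Several genes, among them tnfrsf18, gck and scpp9, lie nearer 0 at both later times than in DMSO, the treatment by which all 40 were chosen.

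The medians of the following lists kept their sign at the later times. Of the 48 cytokine genes, 28 were higher at 3 h and 27 at 24 h by the unadjusted threshold (medians 0.90 and 0.93), against 6.7% and 8.97% of all genes. Of the 29 macrophage markers, 16 and 19 were higher (medians 0.98 and 1.13), and of the 31 complement genes 14 and 17 (medians 0.65 and 0.76). Of the 77 phototransduction genes, 16 and 16 were lower (medians -0.42 and -0.42), against 5.29% and 5.62% of all genes, and of the 66 neuronal genes 12 and 21 (medians -0.23 and -0.29). In the ribosome biogenesis list, 3 of 78 genes were higher at 3 h and 48 at 24 h, and the difference between times was not tested.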

How the data were processed

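Libraries were poly(A)-selected and second strands marked with dUTP, per the labels' protocols. Gene counts were made by the authors with HISAT2 2.0.5, StringTie and featureCounts on GRCz11, per the submitters' processing notes; the strand setting is not given in the sources used here, so overlapping and antisense genes are uncertain. The deposited table holds raw counts of 37660 genes in 24 libraries. From it, edgeR 4.0.16 in R 4.3.3 computed TMM factors, kept 27010 genes with filterByExpr (minimum count 10) and fitted 6 groups of 4 libraries with 18 residual degrees of freedom. The contrast was KO DMSO minus WT DMSO, two-sided, with Benjamini-Hochberg adjustment. CPM are TMM-scaled. P-values measure the spread between pools taken as independent, although the libraries of a group deviated together in pairs. The fit held no term for these pairs.

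The 62 gene lists and all members were chosen with earlier results of these data known. Genes named were drawn from the called ones and the apelin genes. Others came from up to 3 per list and direction with the smallest p, and from the list members with the highest mean CPM. Exceptions are stated. Not every such gene is named, and several lists are shown without their member with the highest mean CPM. Alternatives were RLE and upper quartile scaling, other filters, DESeq2 1.42.0, limma-voom (limma 3.58.1), the 8 DMSO libraries alone, a replicate block, and libraries left out. The fit was tested on simulated data. Some results are not reported here.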

Additional observations from a re-analysis of the deposited data

Results flagged for a closer look

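The genes whose level is given by library were checked, with the total count and the TMM factor of the libraries. Of 160 groups of 4, 6 held 1 library farther from the other 3 than a 95% Dixon limit allows, where chance gives about 5% of groups. No explanation was tested for any of them. KO library 4 had 75.2 CPM of hsp70.2, against 12.3 to 19.4 CPM in the other KO libraries. KO library 1 had 161 CPM of pygma (146.8 to 147 CPM in the others) and 5.104 CPM of amn (4.14 to 4.22 CPM in the others). WT library 3 had 28.8 CPM of timp2b, against 11.3 to 14.3 CPM in the other WT libraries. WT library 2 had 1.08 CPM of il1b, against 0.626 to 0.679 CPM in the other WT libraries. The TMM scaling factor of WT library 2 was 1.04, against 1.01 to 1.02 in the other WT libraries.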

How the results depend on the processing

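The number of genes called, 40, was 33 to 37 under the RLE or upper quartile factors and the other low-count filters, but 402 under DESeq2 (1.42.0) and 3386 under limma-voom with sample quality weights, which also put 7574 genes under an unadjusted p of 0.05, against 2895. The 8 DMSO libraries alone gave 0 calls by edgeR (3148 genes at an unadjusted p under 0.05). Leaving out 1 library in turn gave 0 to 82 calls, 1701 to 3824 genes at an unadjusted p under 0.05, and 2352 to 3914 genes without overlap, against 1913. Leaving out KO libraries 2 and 4 gave 0 calls, 1048 genes at an unadjusted p under 0.05 and 4882 without overlap; leaving out KO libraries 1 and 3 gave 958, 5702 and 11765. Leaving out WT libraries 3 and 4 gave 0, 1841 and 6768, and leaving out WT libraries 1 and 2 gave 6, 2808 and 7319. The cause of these differences was not tested, apart from groups of fewer libraries separating more often by construction. With the replicate number as a block, edgeR called 39 genes over all 24 libraries, 30 of them among the 40, and 0 over the 8 DMSO libraries (2690 at an unadjusted p under 0.05). Same-numbered KO and WT libraries deviated together with a correlation of 0.31, -0.26, -0.19 and 0.19, and 1 of 4 KO libraries correlated best with its own number, so the numbers were not taken to pair the libraries.

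Of 1699 log2 fold changes of named genes under these alternatives, 1241 kept their direction and their side of the threshold, 298 lost a call and 144 gained one, and 16 changed sign, all in genes whose groups overlapped. Without KO libraries 2 and 4 these were rho (0.039), crybb1 (0.028), cyp51 (-0.19) and hsp90ab1 (-0.042). For cpa5 the value ran between -0.11 and 0.17 with 1 library left out, and was -0.16 without KO libraries 1 and 3, and -0.25 without WT libraries 3 and 4. For bhlhe40 it ran between -0.26 and 0.28 with 1 library left out, and was -0.094 under limma-voom, -0.87 without KO libraries 1 and 3, and -0.58 without WT libraries 3 and 4. The medians of 3 lists within 0.02 of 0 (glucose metabolism, circadian clock and glia) changed sign with the upper quartile factors; those of the other 59 kept it under both other scalings. With 4 pools a group and few reads for genes under about 1 CPM, smaller differences were not detectable at this depth.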

Other observations

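Some genes separated the libraries in a way that crossed the genotype. The clock-linked repressor gene bhlhe40 had 252, 88.4, 232 and 92.2 CPM in KO libraries 1 to 4, against 249, 249, 78.8 and 83.3 CPM in WT libraries 1 to 4, so that KO libraries 1 and 3 matched WT libraries 1 and 2 and the other 4 libraries were about 3-fold lower. The mitochondrial uncoupling gene ucp1 had 416, 652, 456 and 706 CPM in KO and 566, 444, 110.4 and 141 CPM in WT libraries, with WT libraries 3 and 4 far below the other 6. Both groups overlapped in these genes, which were singled out after their values were seen.

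Exocrine pancreas genes, which encode digestive enzymes, varied within both genotypes. Relative to the WT mean, the list's median was 0.28, -0.60, 0.07 and -0.57 in KO libraries 1 to 4, and 0.53, 0.40, -0.55 and -0.28 in WT libraries 1 to 4. The spread between WT pools was thus as wide as that between KO pools. Of 6 hatching gland genes, none passed an unadjusted edgeR p under 0.05 in DMSO (median 0.38).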
